A study of Mus musculus with 3 samples.

Results

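TBX1 binding was examined around 6 secreted ligand genes that act in or around the second heart field, namely Fgf1, Fgf10, Nrg1, Wnt5a, Bmp7 and Edn1. These are 6 of the 22380 protein-coding genes of the GENCODE vM1 annotation on the mm9 mouse genome. For each gene, every TBX1 ChIP-seq peak within 500 kb of the gene body was taken, whichever replicate it came from, and genes without such a peak were described by the distance to their nearest one. This gave 11 of the 1088 deposited peaks, which joined into 5 of 711 regions, and 3 of the 255 regions in the consensus list of the study. Peaks of different replicates were joined into 1 region where they overlapped by at least 1 bp.

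The libraries came from whole mouse embryos at E9.5, double homozygous for Tbx1 3'-Avi, an allele that adds a short Avi peptide to the endogenous TBX1 protein, and for the BirA allele Gt(ROSA)26Sortm1.1(BirA)Mejr, from an FVB;129P2 stock, on a strain given as Mix. BirA is a biotin ligase that attaches biotin to the Avi peptide, which serves to pull down TBX1 with its crosslinked DNA. There was 1 condition with 3 replicates of 20 pooled embryos each, input chromatin served as the background for calling peaks, and embryos without the Avi tag were not analysed here. Each value therefore describes a pool of all tissues of the embryo, and the cells in which a site was bound cannot be named from these data.

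The second heart field is a population of progenitor cells in the pharyngeal mesoderm that adds myocardium to both poles of the elongating heart tube, and TBX1 is a T-box transcription factor required there. Its growth and differentiation depend on secreted signals. FGF ligands such as FGF10 act through receptor tyrosine kinases and are linked to proliferation of the progenitors, neuregulin signals through ErbB receptors to the myocardium, WNT5A acts through the non-canonical WNT pathway on cell polarity and cohesion, BMP ligands promote myocardial differentiation through SMAD proteins, and endothelin 1 patterns the pharyngeal arches through a G-protein-coupled receptor.

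The sequences of 3 of the regions are given first, because they show the DNA under the peaks nearest to Nrg1, Wnt5a and Bmp7. Each is the 201 bases of the plus strand of the mm9 assembly (NCBIM37) centred on the mean summit of the region. They lie at chr8:33246126-33246326 for Nrg1, chr14:29778106-29778306 for Wnt5a and chr2:172351584-172351784 for Bmp7. Capitals mark the words described in the paragraphs below, on either strand. In the Nrg1 and Bmp7 windows all of them are words added after the data were seen. In the Wnt5a window only CTGTCA is not.
Nrg1 region: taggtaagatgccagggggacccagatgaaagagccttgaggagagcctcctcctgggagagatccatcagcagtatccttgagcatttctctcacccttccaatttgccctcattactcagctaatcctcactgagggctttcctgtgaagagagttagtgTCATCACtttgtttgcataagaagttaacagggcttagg
Wnt5a region: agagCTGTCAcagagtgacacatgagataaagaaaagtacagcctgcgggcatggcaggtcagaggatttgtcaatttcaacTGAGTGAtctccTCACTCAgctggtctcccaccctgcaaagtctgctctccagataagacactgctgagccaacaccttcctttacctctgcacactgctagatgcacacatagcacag
Bmp7 region: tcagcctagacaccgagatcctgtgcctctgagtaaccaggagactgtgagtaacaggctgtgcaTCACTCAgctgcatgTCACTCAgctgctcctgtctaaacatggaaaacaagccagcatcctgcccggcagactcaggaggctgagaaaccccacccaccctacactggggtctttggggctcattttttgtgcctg

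Words of 4 known kinds were looked for on both strands of these windows. GTGTGA is the core of a T-box site and GGTGTGA a longer form that contains it, TGACAG is a word bound by TALE homeodomain proteins, and TGATTGAT is a word bound by PBX proteins with a partner. Of the 5 regions near the ligand genes, 1 held any of these words, the Wnt5a region, with a TGACAG on the minus strand 93 bp from the centre. Any of them occurred in 52.6% of all 711 regions and in 21.7% of same-length windows 5 kb to the right and 22.2% of those on the left. Over all regions, the share with a word was 11.5% for GTGTGA, 3.52% for GGTGTGA, 41.9% for TGACAG and 6.75% for TGATTGAT. In windows of the same length 5 kb to the right it was 10.3%, 2.81%, 12.4% and 0.703%. GTGTGA was thus about as frequent in the regions as beside them, whereas TGACAG and TGATTGAT were more frequent in the regions. The 4 words were themselves chosen with earlier results of these data known. Their shares are therefore descriptions only, and the excess of TGACAG and TGATTGAT is not a test of a prior expectation.

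A further 3 words were added after the data were seen, as the 7-letter words with the largest excess over the windows on both sides across all 711 regions. They were TCTGTCA, which contains TGACAG on its other strand, TCACTCA and GTGATGA, held by 23.8%, 19.1% and 14.6% of all regions. Windows 5 kb to the right held them in 2.95%, 2.95% and 2.53%, and windows to the left in 3.8%, 3.52% and 1.41%. TCACTCA occurred in 3 of the 5 regions near the ligand genes. The Bmp7 window held it in 2 copies, 32 and 17 bp from the centre, both on the plus strand. The Wnt5a window also held 2 copies, 15 bp from the centre on the minus strand and 3 bp from it on the plus strand. The Nrg1 window held no TCACTCA and 1 GTGATGA, 65 bp from the centre. The region in an intron of Fgf1 held 1 of each, overlapping, 43 and 46 bp from its centre, and the other Fgf1 region held none of the 7 words. In all, 4 of the 5 regions held an added word, against 47.0% of all 711 regions, 7.45% of the windows to the right and 8.58% of those to the left. These words were taken from the same regions, so the counts are descriptions only. The GC content was 48.3% in the Nrg1 window, 49.8% in the Wnt5a window and 54.7% in the Bmp7 window, with a median of 50.2% over all regions.

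The replicates differed in the number of peaks, with 146 in replicate 1, 646 in replicate 2 and 296 in replicate 3. The study's text gives other peak numbers, which also follow another order by replicate, so each list is called here by the replicate number on its sample label, and which library of the text it is was not settled. The fold enrichment, which is the ChIP signal over the local background at the summit of a peak, had medians of 6.51, 6.25 and 6.14. Because the lists differ in length, each peak is also given by its percentile among the fold enrichments of its own list, from 0 for the lowest to 100 for the highest. Reads per peak are unknown, and so no counting error can be given for a fold enrichment. With 1 condition there is no contrast to test, and the 3 lists give the only measure of spread.

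Of the 6 ligand genes, 4 had a peak within 500 kb in at least 1 list, against 27.1% of all protein-coding genes. They were Fgf1, Nrg1, Wnt5a and Bmp7, whereas Fgf10 and Edn1 had none. In replicate 1, with the fewest peaks, 2 genes had one (Nrg1 and Bmp7), where the share of all genes was 7.03%. In replicates 2 and 3 the 4 genes each had one, with shares of all genes of 25.4% and 13.9%. A region with peaks of at least 2 lists lay near the same 4 genes, against 13.1% of all genes, and a region with peaks of all 3 lists near Nrg1 and Bmp7, against 4.9%. A consensus region lay near 3 genes, Fgf1, Nrg1 and Bmp7, against 12.9%. The share of all genes was not adjusted for gene length or gene density, and a region can count for several genes. The 6 genes were chosen with earlier results of these data known, so their counts are descriptions beside these shares. By region, 4 of the 5 had peaks of at least 2 lists, and among all regions 39.2% did.

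**Figure D1:**
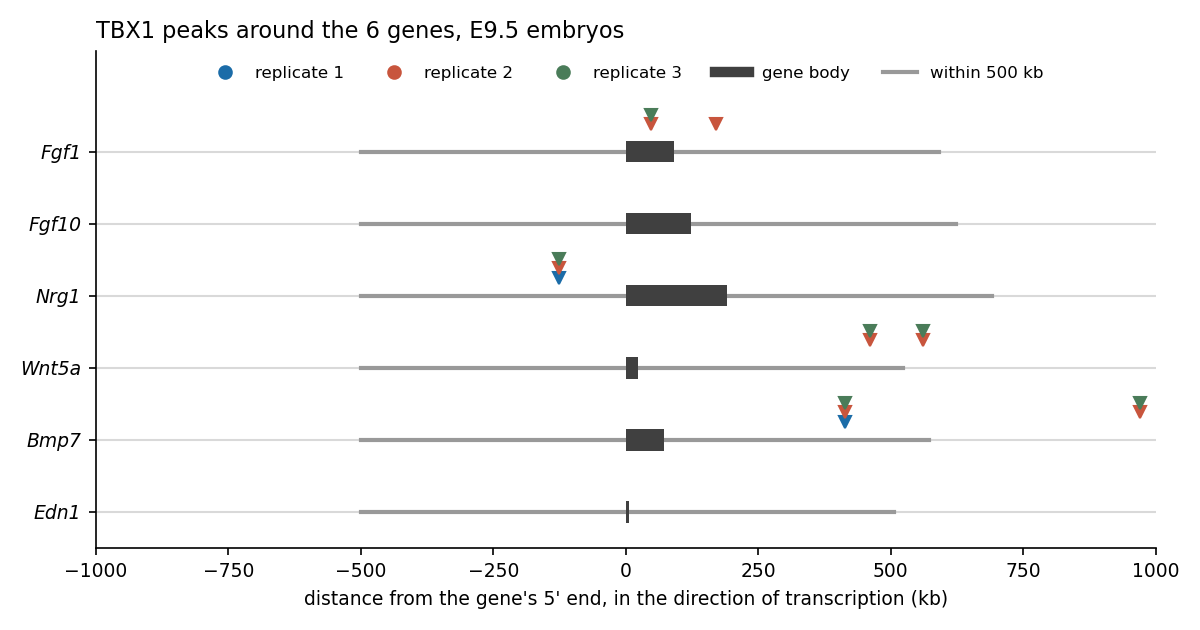
Positions of the TBX1 regions around each ligand gene, in kb from the 5′ end of the gene in the direction of transcription, with 1 triangle for each replicate that had a peak. Regions lay inside and downstream of Fgf1, upstream of Nrg1 and downstream of Wnt5a and Bmp7, and the rows of Fgf10 and Edn1 are empty; the regions of Wnt5a and Bmp7 to the right of the grey line lay beyond 500 kb of the gene body.

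No region lay at a promoter of the 6 genes in the GENCODE vM1 annotation. The starts of a longer RefSeq model of Nrg1, described below, were not compared. The distances from the gene body were 0 kb for Fgf1, 126.5 kb for Nrg1, 341.7 kb for Bmp7, 437.5 kb for Wnt5a, 2807.6 kb for Fgf10 and 3896.6 kb for Edn1. The median over 22367 protein-coding genes on chromosomes with a peak was 1240.1 kb. Thus 98.7% of genes lay farther from a peak than Fgf1, 91.2% farther than Nrg1, 79.9% farther than Bmp7 and 75.5% farther than Wnt5a, and 25.6% and 16.7% lay farther than Fgf10 and Edn1.

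**Figure D2:**
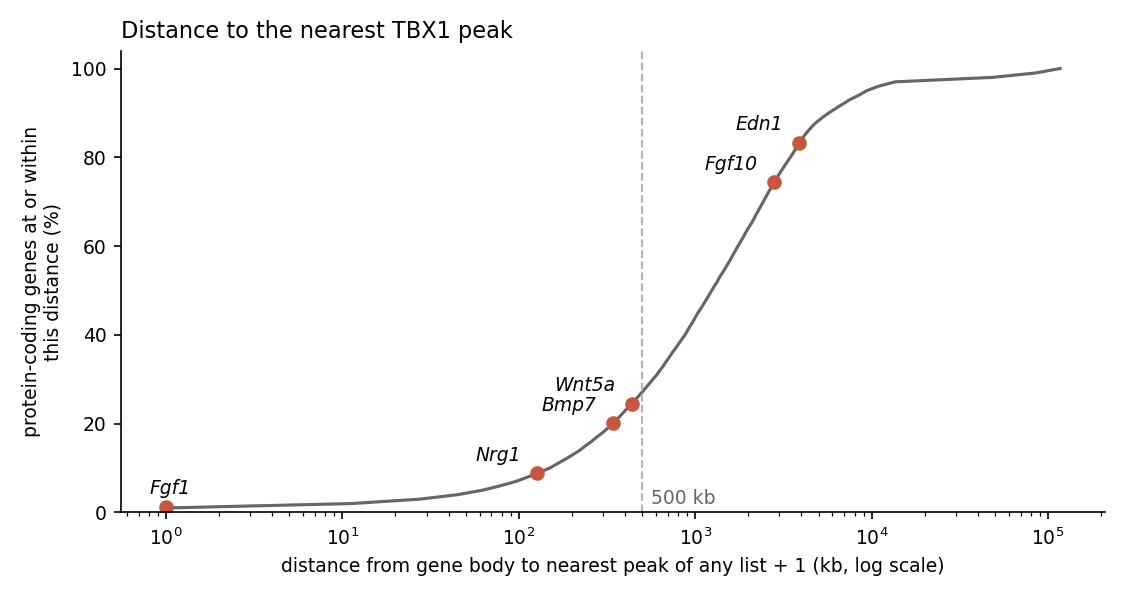
Cumulative share of protein-coding genes by distance from the gene body to the nearest peak of any replicate, with 1 kb added so that a distance of 0 can be drawn on the log axis. Points mark the 6 ligand genes, of which 4 lie to the left of the dashed line at 500 kb and Fgf10 and Edn1 to the right of it.

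Among the FGF ligands, Fgf1, which encodes a broadly acting fibroblast growth factor, had 2 regions. The gene lies on the minus strand of chromosome 18 at 38998327 to 39089058. The region inside it spanned 39042146 to 39042367, within an Fgf1 intron that is shared with the overlapping gene Arhgap26. Replicates 2 and 3 gave fold enrichments of 8.08 and 6.79, with −log10 q-values of 11.04 and 7.82, and no peak in replicate 1. These ranked 152 of 646 and 105 of 296, at percentiles of 76.3 and 63.7. Both were therefore above the median of their lists, and their summits were 12 bp apart. The region was 46.7 kb from the 5′ end of Fgf1 and 15.7 kb from the nearest of the starts of its 7 annotated transcripts, and no other protein-coding gene had a nearer transcription start site, taken throughout as the 5′ end of the gene body. The consensus list held it as 39042144 to 39042438.

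The other Fgf1 region spanned 38919708 to 38919870, 78.5 kb downstream of the gene and in an intron of Arhgap26. It had a peak in replicate 2 alone, with a fold enrichment of 6.25 and a −log10 q of 6.21. By fold enrichment this was at the median of that list, at a percentile of 48.5, but by −log10 q it was below the median of 7.44, at a percentile of 35.9, and 27 peaks of the list shared exactly this fold enrichment. By the 5′ ends of genes, 3 were nearer to it than Fgf1 at 169.2 kb, namely 9630014M24Rik and Arhgap26, both at 158.5 kb, and Spry4, an inhibitor of receptor tyrosine kinase signalling, at 158.8 kb. The annotated transcript Fgf1-007 starts nearer than these 5′ ends, 98.5 kb from the region, and the single transcripts of the other 3 genes were not compared.

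Fgf10, the FGF ligand whose expression marks second heart field progenitors, had no peak within 500 kb in any list. The gene lies on the plus strand of chromosome 13 at 119458598 to 119580922. The nearest peaks lay 2807.6 kb upstream and formed a region of all 3 lists at 116650669 to 116650963. Its fold enrichment was 9.94 in replicate 1, 20.27 in replicate 2 and 9.49 in replicate 3, at percentiles of 90.4, 99.1 and 87.7. It was a higher-ranking region in every list than any within 500 kb of the ligand genes, yet 22 protein-coding genes had a transcription start site nearer to it than Fgf10. The nearest was Gm6404 at 293.0 kb, followed by Isl1, which encodes a LIM homeodomain factor of the second heart field, at 448.9 kb. Isl1 is named here after its distance was seen.

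Nrg1 encodes neuregulin 1, a ligand of the EGF family for ErbB receptors. The annotated gene lies on the minus strand of chromosome 8 at 32928500 to 33119581, and its region spanned 33246091 to 33246393, which is 126.5 kb upstream of the gene and between annotated genes. The fold enrichment was 8.28 in replicate 1, 12.90 in replicate 2 and 7.17 in replicate 3, and the −log10 q-values were 11.02, 25.45 and 9.24. All 3 peaks were above the median of their lists, at ranks of 32 of 146, 28 of 646 and 90 of 296. The percentiles were 77.7, 95.6 and 69.3, with a mean of 80.9 ± 13.4 (SD, n = 3), which was the highest mean among the 5 regions. The summits lay within 43 bp of each other, and the 3 peaks shared 195 bp.

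No protein-coding gene had a transcription start site nearer to this region than Nrg1, and the next was Gm5908 at 341.4 kb. The 3 transcripts of Nrg1 in the annotation start between 126.5 and 217.4 kb from it. The position upstream of the gene depends on the gene model. The RefSeq model of Nrg1 on the later GRCm38.p6 assembly is 1084.2 kb long, compared with 191.1 kb in GENCODE vM1, and it overlaps Gm3985. In the mm9 annotation Gm3985 begins 879.4 kb from Nrg1 on the side of the region and 752.6 kb beyond the region. By the order of the genes, the region then falls within the longer Nrg1 model. No coordinate was converted between the assemblies.

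Wnt5a, a ligand of the non-canonical WNT pathway, lies on the plus strand of chromosome 14 at 29317936 to 29340633. Its region spanned 29778093 to 29778309, 437.5 kb downstream, in an intron of Cacna2d3, which encodes an auxiliary subunit of calcium channels. The fold enrichment was 6.25 in replicate 2 and 5.12 in replicate 3, with −log10 q-values of 6.21 and 3.90, and replicate 1 had no peak. The peaks ranked 320 of 646 and 219 of 296, at percentiles of 48.5 and 25.2, so neither was above the median of its list. The summits were 23 bp apart and the peaks shared 80 bp. The nearest transcription start site was that of Lrtm1, 53.1 kb away, and that of Wnt5a, 460.2 kb away, was the next.

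Although peaks of 2 lists overlapped there, the consensus list held no region at this site. The same was true of 62 of the 279 regions with peaks of at least 2 lists. A second region in the same Cacna2d3 gene, at 29878204 to 29878396, lay 537.6 kb from Wnt5a and so just outside the distance used. Its fold enrichments were 8.84 (replicate 2) and 6.43 (replicate 3), at percentiles of 83.0 and 56.9, and it was in the consensus list. Lrtm1 was again the gene with the nearest start, at 46.8 kb. Both regions near Wnt5a were thus closer to the promoter of Lrtm1, and the higher-ranking of them lay beyond the limit.

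Bmp7, which encodes a BMP ligand, lies on the minus strand of chromosome 2 at 172693513 to 172765822. The region near it spanned 172351528 to 172351822, 341.7 kb downstream and between genes. The fold enrichment was 5.79 in replicate 1, 13.29 in replicate 2 and 7.14 in replicate 3, and the −log10 q-values were 8.05, 26.74 and 8.79. The peak of replicate 1 was below the median fold enrichment of its list, at rank 91 of 146, whereas those of replicates 2 and 3 were above it, at ranks 22 of 646 and 94 of 296. By −log10 q the peak of replicate 1 was above the median of 7.10, at rank 60 of 146 and a percentile of 59.2. The percentiles of 38.0, 96.5 and 67.2 had a mean of 67.3 ± 29.3 (SD, n = 3). This was the widest spread among the 4 regions with peaks of at least 2 lists, and the means of Nrg1 and Bmp7 differed by less than it. The summits lay within 70 bp of each other.

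The start site of Bmp7 was 414.0 kb from this region, and 9 other protein-coding genes had a nearer one. The nearest was Tcfap2c, which encodes an AP-2 transcription factor and is also called Tfap2c, at 23.3 kb. The next region on that side of Bmp7 lay 898.4 kb from the gene, where replicates 2 and 3 gave 11.06-fold and 8.57-fold enrichment, and its nearest start was that of Cbln4.

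Edn1, the gene for endothelin 1, lies on the plus strand of chromosome 13 at 42396639 to 42403358. With a length of 6.7 kb it is the shortest of the 6 genes. No list had a peak within 500 kb of it. The nearest peak was 3896.6 kb upstream at 38499880 to 38500059, in an intron of Bmp6, the gene for another BMP ligand. It was found in replicate 2 alone, with a fold enrichment of 7.03 and a percentile of 64.0. The nearest peaks of replicates 1 and 3 were 16631.9 and 13585.9 kb away, and the nearest consensus region was 11582.5 kb away. Of the 6 genes, Edn1 was therefore the farthest from any peak.

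**Figure D3:**
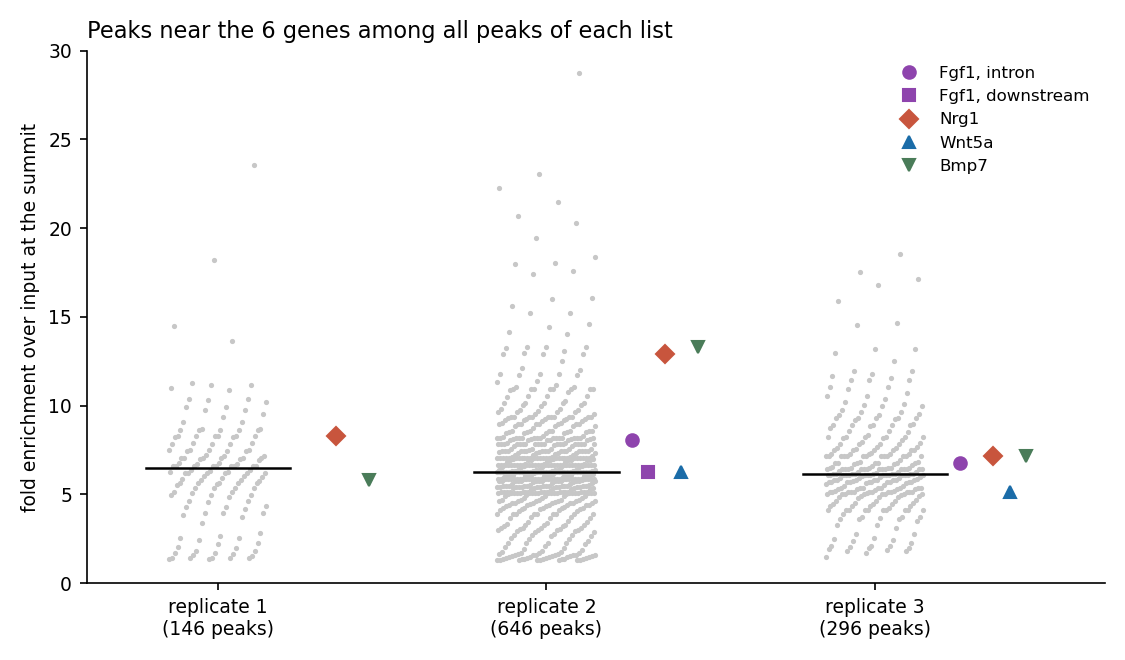
Fold enrichment over the local background at the summit, which the axis labels as over input. Grey points are the peaks of the 3 lists, with a line at each median, and coloured symbols the peaks near the ligand genes. The Nrg1 and Bmp7 peaks of replicate 2, at 12.90 and 13.29, stand highest among the peaks near the ligand genes, and the Wnt5a peaks lie at or below the medians.

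Across the ligand genes, replicate 2 gave the highest fold enrichment of each region that had peaks of several lists. In that list the order was Bmp7 (13.29), Nrg1 (12.90), Fgf1 in the intron (8.08), and then Wnt5a and the downstream Fgf1 region, both at 6.25. In replicate 3 it was Nrg1 (7.17), Bmp7 (7.14), Fgf1 (6.79) and Wnt5a (5.12), and the highest 3 differed by less than they did between lists. In replicate 1 only the Nrg1 and Bmp7 regions had peaks. The mean percentile was 70.0 ± 8.93 (SD, n = 2) for the region in Fgf1 and 36.9 ± 16.5 (SD, n = 2) for that of Wnt5a. The median of the mean percentiles over the 5 regions was 67.3.

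**Figure D4:**
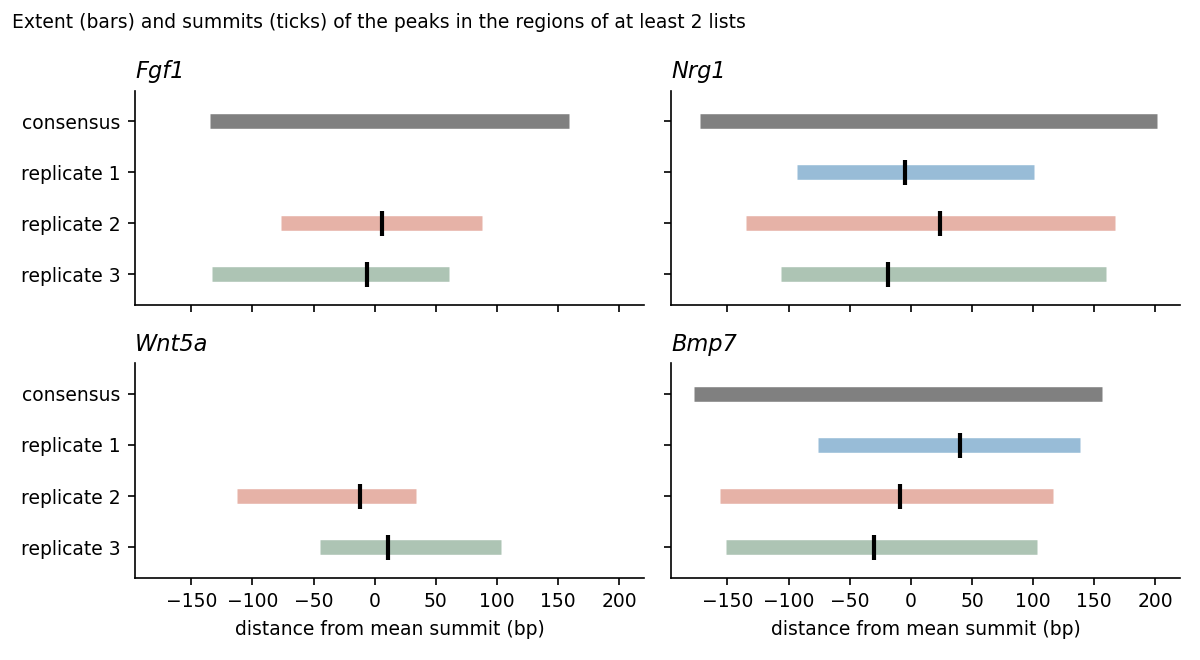
Extent of each peak (coloured bars) and its summit (black ticks) in bp from the mean summit, for the 4 regions with peaks of at least 2 lists, with the region of the consensus list in grey where there is one. All summits of a region lie within 70 bp, the peaks of the Wnt5a region share 80 bp, and that region has no consensus bar.

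The summits of a region lay close together, with spreads of 12 bp for Fgf1, 23 bp for Wnt5a, 43 bp for Nrg1 and 70 bp for Bmp7. Where the consensus list held a region near a ligand gene, it reached past the outer ends of the peaks, by 73 bp for Fgf1, 71 bp for Nrg1 and 39 bp for Bmp7. Among all consensus regions that overlapped a peak, 239 of 252 did so.

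The other genes of the 5 pathways were examined in the same way, from a list of 81 ligands, receptors, transducers and inhibitors. Of these, 22 (27.2%) had a peak within 500 kb in any list, 10 (12.3%) a region of at least 2 lists and 4 (4.94%) a region of all 3. These shares were close to those of all protein-coding genes, which were 27.1%, 13.1% and 4.9%. By pathway, a region of at least 2 lists lay near 1 of 21 other FGF genes, 1 of 7 neuregulin genes, 4 of 16 non-canonical WNT genes, 3 of 25 BMP genes and 1 of 12 endothelin genes. By role, any peak lay near 8 of 22 other ligands and 4 of 22 receptors. No peak of any list lay within 500 kb of the 4 FGF receptors, 5 BMP antagonists, 2 endothelin receptors or 2 endothelin-converting enzymes. These were all the groups by pathway and role without one. They are small, where 27.1% of all protein-coding genes had a peak, and the BMP antagonist Nog had its nearest at 502.4 kb.

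In the FGF pathway the gene was Spry4, and its region of 2 lists was the one inside Fgf1, 281.2 kb away, where Fgf1 had the nearest start. The single-list region downstream of Fgf1 lay closer to it, at 158.8 kb. Fgf8, a ligand required in the second heart field, had a peak in replicate 2 alone, 4.5 kb upstream, with a fold enrichment of 5.13 at a percentile of 27.7, and Npm3 had a nearer start. Fgf8 is named for its role after its value was seen. In the neuregulin pathway Erbb2, a co-receptor for the neuregulin signal, had a region 495.3 kb downstream where replicates 1 and 2 gave fold enrichments of 7.05 and 5.73, but 35 protein-coding genes had a nearer start, of which Rara was the nearest.

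Among the genes of the non-canonical WNT pathway, Wnt11, a ligand related to Wnt5a, had a region of all 3 lists 71.4 kb upstream (chr7:105911658-105912218), whose fold enrichments in replicates 1 to 3 were 10.97, 12.97 and 8.93. Ror1, which encodes a receptor for WNT5A, held a region of all 3 lists in its gene body (chr4:100017180-100017697), with values of 6.27, 16.02 and 11.79. Daam1, which links the pathway to the cytoskeleton, also held one (chr12:72967379-72967644), with lower values of 4.97, 5.56 and 5.46. That region was not in the consensus list. It was 1 of 3 regions within 500 kb of Daam1, and the others are not described here. The study names Daam1 among its predicted TBX1 target genes. Prickle1, a planar cell polarity gene, had a region of 2 lists 497.0 kb away, with 4 genes nearer, Gxylt1 first. In replicates 2 and 3, the lists in which Wnt5a had a peak, the regions of Wnt11 and Ror1 ranked higher than that of Wnt5a, and they were closer to their genes. As with Wnt5a, 1 other protein-coding gene had a start nearer to the region in each case, Prkrir for Wnt11 and Ube2u for Ror1.

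For the BMP pathway, Bmp4, a second BMP ligand, had a region of all 3 lists 426.6 kb downstream (chr14:46576386-46576627), with fold enrichments of 7.52, 7.84 and 8.53, and 3 other genes had a nearer start, Ddhd1 first. Id2, a transcriptional target of BMP signals, had one 2.7 kb upstream of the gene (chr12:25783640-25783941), with 9.80 in replicate 2 and 8.88 in replicate 3. Smad4, the common SMAD, had one 352.3 kb downstream in the same replicates, to which the start of Mex3c was nearer. In the endothelin pathway Edn3, a ligand related to Edn1, had a region 74.8 kb downstream (chr2:174684365-174684617), with 8.84 in replicate 2 and 5.65 in replicate 3, and no other protein-coding start was nearer to it.

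**Figure D5:**
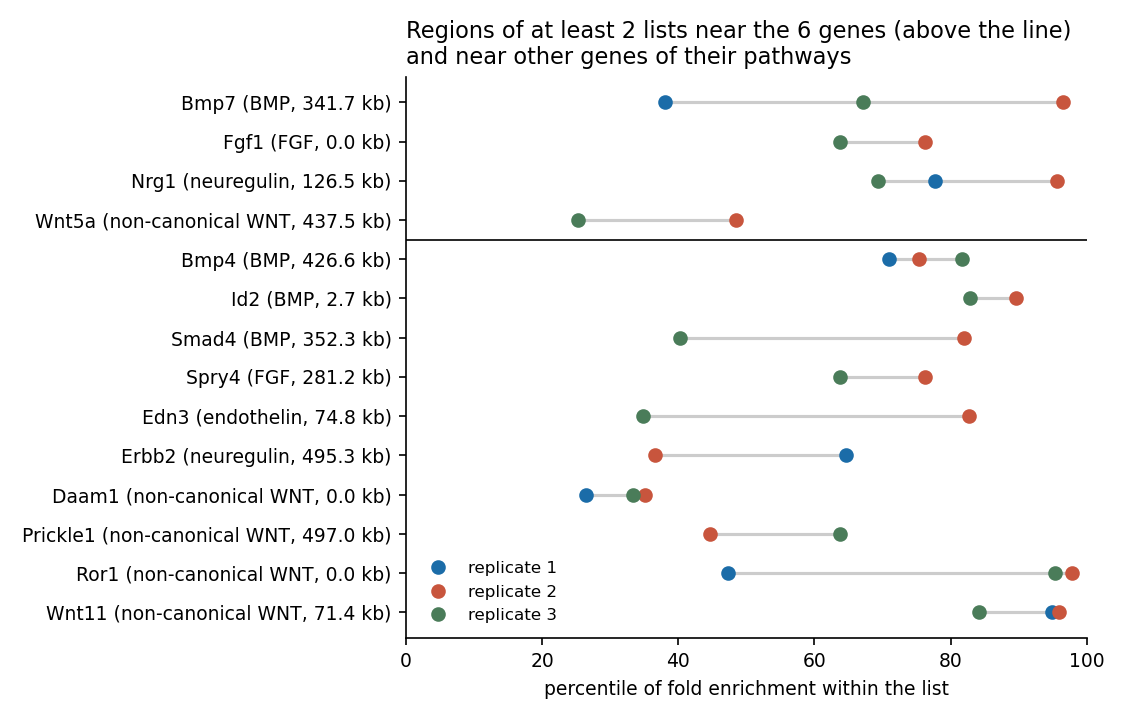
Percentile of fold enrichment within each list, from 0 to 100, for the regions of at least 2 lists near the ligand genes (above the line) and near other genes of their pathways, with the distance from the gene body in kb. Wnt11 has its 3 points between 84.1 and 95.9, whereas those of Wnt5a lie at 48.5 and 25.2 and those of Bmp7 spread from 38.0 to 96.5.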

How the data were processed

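TBX1 ChIP-seq peaks of 3 replicates of Tbx1-Avi;BirA embryos and the consensus list were analysed. The authors trimmed adapters (cutadapt, FastQC and Trim Galore), aligned reads with Bowtie2 2.3.4 to mm9 and kept uniquely mapped, concordant pairs without duplicates. Peaks were called by the authors for every replicate on its own, using MACS2 2.1.2.1 with defaults and input as control. The versions are those of the submitters' processing notes. The deposited fold enrichment is a ratio over the local background at the summit, and the deposited q-value and p-value are in −log10 form. With bedtools 2.29 the authors built the consensus list from regions found in 2 or more replicates, without blacklisted ones. Of its 255 regions, 252 overlapped a deposited peak, and 239 of these reached past the outer ends of their peaks, which an intersection cannot do. The consensus list is therefore not an intersection of the deposited lists as they stand, and cannot be read as a filter on these peaks. The study's text states sequencing depths, but its peak numbers differ from those of the lists, so the depths were not assigned to them. No counting error is given, and the part of depth in the number of peaks was not tested.

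Coordinates are 1-based. Distances are from the nearest edge of the gene body in GENCODE vM1, which lists 37310 genes, to the nearest edge of the peak. A percentile is the share of peaks of the same list with a lower fold enrichment, with tied peaks at the middle of their ranks. Sequences were read from NCBIM37 with pysam 0.24.0, and gene model lengths were also taken from the RefSeq table for GRCm38.p6. Python 3.11.15, numpy 2.4.6 and matplotlib 3.10.9 were used. Merging, distances and ranks were tested on simulated data.

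The 6 ligand genes, the 81 other pathway genes and the words were chosen with earlier results of these data known. Other pathway genes were named where a peak lay within 500 kb in at least 2 of the 3 lists, and each region near a ligand gene was described by the gene that holds it and the protein-coding gene with the nearest start, which is the 5′ end of the gene body. No test was run, since there is 1 condition and peaks are not replicates. Alternatives were distances of 100 and 1000 kb, distances from the transcription start site, q-values under 0.01 and under 1e-05, the consensus list alone, a reciprocal overlap of 50%, summits within 100 bp, ranks by −log10 q, the highest list in place of the mean, all annotated genes, and leaving out each replicate in turn.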

Additional observations from a re-analysis of the deposited data

How the results depend on the processing

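Of the 36 alternatives to the main counts and ranks, 27 stayed within 1.5 times the count or 1 SD of the rank. The number of ligand genes with a peak was 4 at distances of 500 and 1000 kb, from the transcription start site and at both stricter q-values. It was also 4 without any 1 replicate (4 to 4). In the consensus list alone it was 3, without Wnt5a, and within 100 kb it was 1, Fgf1 alone. The number of regions near them fell from 5 to 2 within 100 kb and to 3 in the consensus list, and was 4 to 5 without 1 replicate. Protein-coding genes with a peak numbered 6066, against 1628 within 100 kb, 9820 within 1000 kb, 2879 in the consensus list and 3419 to 6040 without 1 replicate, the lowest without replicate 2. Over all 37310 annotated genes they were 9639. The median of the mean percentiles, 67.3, was 58.2 to 70.0 without 1 replicate. The words added after the data were seen occurred in 4 of the 5 regions (47.0% of all 711), and the T-box and homeodomain words in 1 of the 5 (52.6% of all 711). Of the 24 alternatives for single regions, the Nrg1 and Bmp7 regions by their highest list moved by more than their SD between lists. Leaving out 1 list always shifts the mean percentile of such a region by less than this SD, whatever the values. The same holds for the highest list in a region of 2 lists. Those alternatives could not have counted as moved, so they do not show that the ranks are stable. The Fgf1 region downstream of the gene, which has 1 list and no SD of its own, had a percentile of 35.9 by −log10 q in place of 48.5.

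No paired analysis was possible because there is 1 group. Reads per peak are unknown, so the absence of a peak from replicate 1, which has the shortest list, was not tested for its dependence on depth, and a gene without a peak is one for which none was called in these pooled whole embryos.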
